A study of Mus musculus with 62 samples.

Results

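The diaphragm of mice with a cachectic melanoma was compared with that of mock-injected control mice at 6 weeks. The members were chosen by their labels, as the 5 libraries labelled cachectic and the 5 labelled control at 6 weeks, and they are 10 of the 62 libraries of the series. The study followed the diaphragm, the main breathing muscle, through the course of cancer cachexia, the loss of muscle and fat that accompanies many tumors, and it took muscle at 2, 4, 6 and 8 weeks after cell injection. Polyadenylated RNA was sequenced, and each library came from 1 mouse.

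All mice were female and 2 months old per the labels. The labels give this age at every week after injection, and the study's methods give it for the purchased mice. The age at tissue collection is thus unsure. The cachectic mice carried cells of a patient-derived melanoma xenograft that causes wasting, injected into the flank. Control mice were mock injected with PBS, and another group of 5 mice at 6 weeks carried cells of a non-cachectic melanoma. The strain is given in conflicting ways: the labels read C57BL6/J, while the series text and the study's methods read NCI Ath/nude. Nude mice lack mature T cells but keep B cells, macrophages and neutrophils. The kit also differs between sources, TruSeq stranded mRNA in the labels and TruSeq RNA Sample Prep v2 in the methods, so the strandedness of the libraries is unsure. The tendon was removed before part of the muscle was snap frozen.

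As background, muscle in cachexia is exposed to cytokines released by the tumor and host, among them members of the IL-6 family, which act through JAK kinases and the transcription factor STAT3, and to adrenal glucocorticoids. Both signals switch on acute phase genes, best known from liver, and both are linked in limb muscle to the ubiquitin ligases Fbxo32 (atrogin-1) and Trim63 (MuRF1) that mark sarcomere proteins for breakdown. The diaphragm contracts without rest and is rich in mitochondria, so it is usually studied apart from limb muscle.

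The tissue label was checked against muscle fiber genes. The summed level of 10 fiber genes was 92534, 81313, 81983, 87835 and 72266 TPM (transcript abundance scaled to the same total in each library) in cachectic mice 1 to 5 and 67860.0, 81026, 68479.5, 69790.0 and 66759 in control mice 1 to 5. Acta1, skeletal alpha-actin, was the most abundant of them at 33619.9 ± 4563 TPM in cachectic and 26878 ± 3673 in control mice (mean ± SD, n = 5 each, as throughout), and no fiber gene was at 0. All 10 libraries thus carried high levels of muscle RNA. Each library listed 17909 to 18597 genes above 0, and 13578 genes with at least 1 TPM in 5 or more of the 62 libraries were tested. Sequencing depth is unknown, since the total is fixed.

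Cachectic mouse 5 stood apart from the other libraries before any comparison. The summed TPM of 12 hepatocyte genes was 68.3, 53.9, 97.3, 18.5 and 5478 in cachectic mice 1 to 5 and 24.002, 58.2, 422, 16.7 and 141 in control mice, and albumin (Alb), the most abundant, was at 0.024004, 0.344, 39.7, 0.145 and 2720.1 TPM in the cachectic mice and 0.564, 0.0854, 165, 1.501 and 42.8 in the control mice. Cachectic mouse 5 was thus far above every other mouse, and control mouse 3 was the highest control. The 10 B and plasma cell genes, led by Igkc, an antibody light chain, summed to 22.9, 76.3, 39.99, 140.1 and 1942 TPM in cachectic mice 1 to 5 and 522, 61.6, 34.04, 192 and 79.3 in control mice. Here too cachectic mouse 5 was highest, and control mouse 1 was next. The diaphragm lies against the liver, and the part of liver or blood cells in this library's values was not tested. Cachectic mouse 5 was also highest for adipocyte markers, given below. Results found to rest on cachectic mouse 5 are given with and without it.

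TPM values are shares of a total, and a large part of that total came from mitochondrial DNA. The 13 mitochondrially encoded protein genes took 34.3, 39.9, 39.3, 39.8 and 44.9% of all TPM in cachectic mice 1 to 5, and 47.9, 44.9, 45.5, 46.2 and 47.5% in control mice. All 5 cachectic mice lay below control mouse 2, the lowest control, although cachectic mouse 5 was only just below it. The means were 39.6 ± 3.76% and 46.4 ± 1.27%, and the difference of -6.73 points had p = 0.007937 in an exact two-sided permutation test, the smallest p that groups of 5 mice can give. With a smaller share in these genes, the median gene was 0.17 higher in cachectic mice on the log2 scale, and changes of gene groups are given relative to that shift. The shift was 0.01 after median-ratio scaling, -0.01 after quantile normalization and 0.03 with TPM recomputed without the mitochondrially encoded genes. With no filter on low values the shift was also 0.03, and list medians relative to all genes moved with it. Fewer cells of a type and less RNA per cell cannot be told apart in whole tissue.

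The main question was which genes of the diaphragm differed between cachectic and control mice at 6 weeks. The metallothioneins Mt2 and Mt1, the acute phase genes Serpina3n, Hp and Lcn2, the cytokine feedback gene Socs3 and the complement genes C7 and C6 were higher in cachectic mice, while the matrix genes Kera and Chad, the kinase gene Nmrk2 and the apelin receptor Aplnr with its ligand Apln were lower. On the log2(TPM + 1) scale Mt2 showed the largest rise, with a mean of 511 ± 375 TPM in cachectic and 11.9 ± 2.42 in control mice, and Nmrk2 the largest fall among genes whose groups did not overlap, with 21.5 ± 7.42 against 101 ± 37.3 TPM. With a pseudocount of 0.1, which gives low genes more weight, Saa1 rose further (6.33) than Mt2 (5.21) and Kera fell further (-2.74) than Nmrk2 (-2.21). The test called 175 genes higher (1.29% of the genes tested) and 31 lower (0.228%) (adjusted p under 0.05 in limma, with a change of more than 1 on the log2 scale). At any size, 763 genes were higher (5.62%) and 159 lower (1.17%).

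Without a model, every cachectic mouse lay above every control mouse in 2164 genes (15.9%) and below in 400 (2.95%). This split depended on the scale. After median-ratio scaling the non-overlapping genes were 1142 above and 1300 below, after quantile normalization 931 and 1385, and with TPM recomputed without the mitochondrially encoded genes 1148 and 1123. The calls shifted less, from 85% higher to 65.1% (125 higher, 67 lower), 65.7% (132 and 69) and 64.5% (149 and 82) under the same 3 scalings. A pseudocount of 0.1 in place of 1 gave 227 higher and 61 lower. Leaving out cachectic mouse 1 reduced the genes called higher to 114, and leaving out cachectic mouse 5 raised them to 205 and the non-overlapping genes from 2164 and 400 to 3834 and 463. All 66 called genes named here kept their direction under every alternative. Dunn's test at an unadjusted p, with 213 genes higher and 33 lower, did not call Nmrk2, Mfap4, Aplnr, Slc30a2 and Grb14, and with adjusted p it called none.

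The metallothioneins Mt2 and Mt1 encode small proteins that bind zinc and copper. Mt2 stood at 1176, 289.9, 335, 436 and 321 TPM in cachectic mice 1 to 5 and at 13.8, 7.74, 12.03, 13.1 and 12.97 in control mice 1 to 5. Mt1 stood at 1382, 439, 434, 496 and 421 and 73.3, 73.6, 80.3, 97.9 and 81.7 TPM. For both genes cachectic mouse 1 was far above the other 4 cachectic mice, and even the lowest cachectic mouse was several-fold above the highest control. The log2 fold change on the log2(TPM + 1) scale was 5.11 ± 0.70 (SE) for Mt2 (adjusted p = 1.72e-06) and 2.78 ± 0.45 for Mt1 (adjusted p = 3.15e-05). Mt2 and Mt1 are neighbors on the plus strand of chromosome 8 of the GRCm38 build, at chr8:94172664-94173568 and chr8:94179082-94180327, and reads that both could have given may have been split between them in a way the sources used here do not state.

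Zinc transporters were described with the metallothioneins. Of 19 genes tested in this list, 4 were called higher and 0 lower, with a median of 0.30 against 0.17 over all genes tested. Slc39a14 (ZIP14), which carries zinc and iron into cells, was at 43.1, 12.4, 12.6, 12.8 and 15.1 TPM in cachectic and 2.799, 3.36, 3.74, 3.88 and 3.38 in control mice. Again cachectic mouse 1 was highest and the groups did not overlap, with a log2 fold change of 2.01 (adjusted p = 0.0118). The call was lost without cachectic mouse 1. Slc30a2, a zinc exporter into vesicles, rose from 4.53 ± 0.519 to 11.6 ± 2.57 TPM (log2 fold change 1.17, adjusted p = 0.0406), a call that was lost under all 3 other scalings, with a pseudocount of 0.1, with no filter and without any of 8 of the 10 mice.

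Acute phase proteins are secreted in inflammation, mainly by liver, and include protease inhibitors, hemoglobin and iron scavengers and serum amyloids. Serpina3n, a serine protease inhibitor also made in muscle, stood at 590.4, 216, 213, 263 and 216 TPM in cachectic mice 1 to 5 and 6.42, 5.94, 9.75, 7.08 and 7.74 in control mice. The cachectic mice were all more than 20 times above the highest control mouse. Serpina3n rose by 5.05 ± 0.70 (adjusted p = 1.72e-06). Serpina3m, a neighbor in the Serpina3 cluster on chromosome 12, stood at 12.4, 4.58, 4.34, 5.91 and 44.98 TPM in cachectic and 0.0307, 0.0873, 0.9497, 0.205 and 0.648 in control mice. Cachectic mouse 5 was far above the other cachectic mice, and the groups did not overlap. Serpina3m rose by 2.97 on the log2 scale (2.44 without cachectic mouse 5), and the nearby Serpina3h by 1.79 and Serpina3i by 1.07 (adjusted p = 0.0109, 3.54e-05 and 6.47e-04), with 4 of 7 family members tested called higher. The filter can be passed through cachectic libraries alone. Without it the median of all 11 family members listed was 0.34 relative to all genes, against 0.90 for the 7 tested. The family members are alike in sequence, so the share of each is uncertain. The call of Serpina3i was lost after median-ratio scaling and quantile normalization, with array quality weights and without cachectic mouse 1.

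Hp, haptoglobin, which binds free hemoglobin, was at 143, 100.2, 86.3, 26.01 and 730.2 TPM in cachectic and 6.06, 8.87, 9.65, 3.74 and 10.02 in control mice. Lcn2, lipocalin 2, which binds iron-carrying siderophores, was at 94.6, 24.5, 26.1, 22.03 and 33.1 and 2.48, 2.31, 4.096, 2.59 and 2.71 TPM. Hp was highest in cachectic mouse 5 and Lcn2 in cachectic mouse 1, and in neither gene did the groups overlap. The log2 fold changes were 3.86 ± 0.95 for Hp (adjusted p = 0.00686) and 3.20 ± 0.43 for Lcn2 (adjusted p = 1.06e-06). Without cachectic mouse 5, Hp still rose by 3.21.

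Saa1, a serum amyloid A carried on lipoproteins, stood at 18.99, 2.66, 6.703, 5.95 and 361 TPM in cachectic mice, and in control mice it was listed at 0 in mice 1 and 5 and reached 0.260 TPM at most. All cachectic mice were above all control mice, but cachectic mouse 5 held most of the signal. Saa1 rose by 3.93 ± 0.83 (adjusted p = 0.00148), and 2.83 without that mouse. Saa1 has close paralogs, which makes its own level uncertain.

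Itih4, an inter-alpha-trypsin inhibitor heavy chain, stood at 13.7, 9.198, 8.47, 3.91 and 131 TPM in cachectic and 0.414, 0.769, 3.84, 0.348 and 0.919 in control mice. Fetub, fetuin B, a secreted protease inhibitor, stood at 6.201, 5.93, 7.46, 5.07 and 42.5 and 0.193, 0.889, 2.04, 0.525 and 0.633 TPM. Both are liver-type genes that peaked in cachectic mouse 5, the library with the high hepatocyte markers, and the other 4 cachectic mice still lay above every control mouse. Their log2 fold changes were 2.97 and 2.54 (adjusted p = 0.0361 and 0.0109), and without cachectic mouse 5 they were 2.20 and 2.01 and no longer called. The call of Itih4 was also lost without cachectic mouse 1, without control mouse 1, 2, 4 or 5, with no filter on low values and with replicate number as a block. Both Itih4 and Fetub were still called with hepatocyte markers as a covariate.

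Of 24 acute phase genes tested, 8 were called higher and 0 lower. Their median relative to all genes was 0.99 on the log2 scale, and -0.09 without cachectic mouse 5. The median of the list thus rested on this mouse, while the calls of Serpina3n, Lcn2, Hp and Saa1 did not. Hp and Saa1 rose less without it, as given above. Iron genes partly overlapped this list, with 2 of 17 called higher and a median relative to all genes of 0.24, or 0.09 without cachectic mouse 5. Cp, ceruloplasmin, a copper-containing ferroxidase, rose from 10.6 ± 1.72 to 25.97 ± 4.61 TPM (log2 fold change 1.21, adjusted p = 0.00296), and Steap4, a metalloreductase, from 20.6 ± 2.58 to 45.8 ± 3.56 (log2 fold change 1.12, adjusted p = 2.45e-05), a call lost under the 3 other scalings. The ferritin heavy chain Fth1, the most abundant iron gene, was at 3361 ± 363 against 2645 ± 112 TPM and did not pass the test (adjusted p = 0.254).

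**Figure D1:**
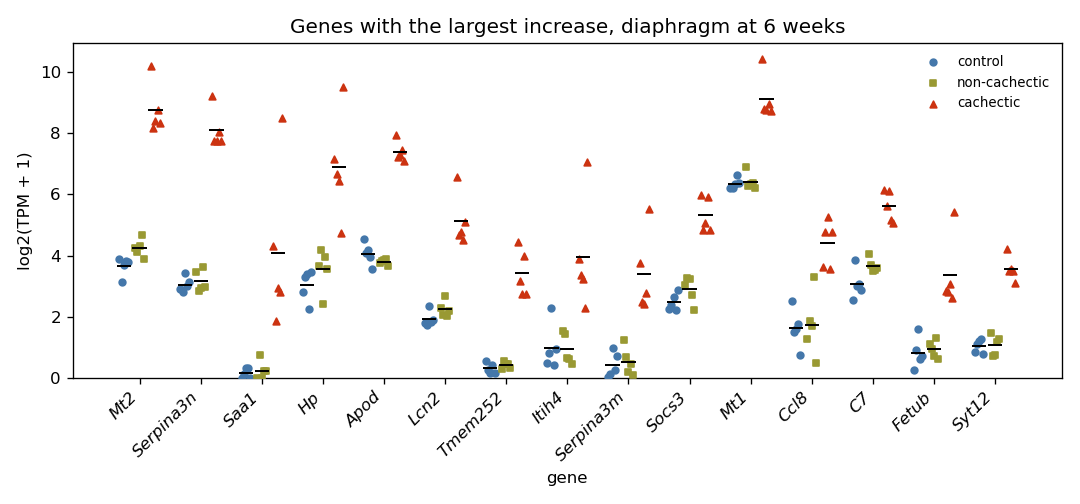
The largest rises in cachectic versus control diaphragm at 6 weeks among genes that passed the test and whose groups did not overlap. The vertical axis gives log2(TPM + 1), each point is 1 mouse (control circles, non-cachectic squares, cachectic triangles), the horizontal bars are group means of 5 mice, and genes are ordered by log2 fold change on this scale from Mt2 at 5.11 to Syt12 at 2.53. In each gene every cachectic mouse lies above every control mouse.

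Several genes of IL-6 family signaling were called higher, while most of the list was not called. Socs3, the feedback inhibitor that STAT3 induces, stood at 61.7, 27.7, 32.6, 59.1 and 27.9 TPM in cachectic mice 1 to 5 and 3.75, 4.24, 5.23, 3.67 and 6.41 in control mice. Cachectic mice 1 and 4 were highest, and the lowest cachectic mouse was about 4 times the highest control mouse. This was a rise of 2.85 ± 0.38 on the log2 scale (adjusted p = 1.06e-06). Osmr, the oncostatin M receptor, was at 21.8, 17.995, 17.3, 18.5 and 13.8 TPM in cachectic and 3.903, 4.08, 5.93, 4.45 and 4.73 in control mice. Every cachectic mouse was above every control mouse (log2 fold change 1.75, adjusted p = 6.61e-06).

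Junb, a subunit of the AP-1 transcription factor, rose from 9.38 ± 2.43 to 38.8 ± 17.2 TPM (log2 fold change 1.84, adjusted p = 9.35e-04). Cebpd, a transcription factor of acute phase genes that answers to both STAT3 and glucocorticoids, rose from 7.63 ± 1.29 to 29.6 ± 13.4 (log2 fold change 1.71, adjusted p = 0.0199), and its call was lost without cachectic mouse 1 or 2. In this list 9 of 26 genes tested were called higher and 0 lower, and the median relative to all genes was 0.32, or 0.18 without cachectic mouse 5. The ligands Il6, Il11, Lif and Osm were below the expression filter, so a change in ligand RNA within the muscle was not tested. Ptpn11, the most abundant gene of the list, a phosphatase in this pathway, was at 70.6 ± 6.79 and 58.9 ± 3.25 TPM (adjusted p = 0.725).

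Promoters of members that rose together were searched for 3 short motifs, chosen after the results were known. TTCNNNGAA, on either strand, is the core that STAT proteins bind, and TGCACNC or TGCGCNC is the core of the metal response element of metallothionein genes. The last was the full palindrome that the glucocorticoid receptor binds. The windows run from 250 bases before to 50 after a gene's start in RefSeq sequences of GRCm38.p6. TTCNNNGAA was found in 8.3% of 32851 promoters and in 6.98% of 12863 promoters of genes tested, against 13.1% of 153 promoters of 121 genes called higher and 3.85% of 26 promoters of 23 genes called lower. The palindrome was in 3 promoters of 32851 and in 0 of those of called genes. The metal element core was in 25.7% of all promoters, 34.7% of promoters of genes tested and 29.4% of those of genes called higher. Among genes called lower it was in 23.1%, Kera and BC048679 among them with 1 match each. The sequences of Socs3, C7, Mt2 and Mt1 are shown as examples of the 2 motifs in genes called higher, with matches in capitals, and Itih4 also holds 1 match to TTCNNNGAA. A match describes the letters and is not a site shown to be used. Socs3 (chr11:117969317-117969616, minus strand) and C7 (chr15:5063724-5064023, minus strand) hold TTCNNNGAA, and Mt2 (chr8:94172368-94172667, plus strand) and Mt1 (chr8:94178839-94179138, plus strand) hold 4 and 3 matches to the metal element core.
Socs3: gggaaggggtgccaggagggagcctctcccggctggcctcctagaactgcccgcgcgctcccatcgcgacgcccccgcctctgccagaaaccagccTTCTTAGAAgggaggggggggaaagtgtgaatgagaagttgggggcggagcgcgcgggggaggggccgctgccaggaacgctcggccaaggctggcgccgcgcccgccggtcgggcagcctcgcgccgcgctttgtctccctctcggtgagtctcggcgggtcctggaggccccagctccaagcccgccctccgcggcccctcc
C7: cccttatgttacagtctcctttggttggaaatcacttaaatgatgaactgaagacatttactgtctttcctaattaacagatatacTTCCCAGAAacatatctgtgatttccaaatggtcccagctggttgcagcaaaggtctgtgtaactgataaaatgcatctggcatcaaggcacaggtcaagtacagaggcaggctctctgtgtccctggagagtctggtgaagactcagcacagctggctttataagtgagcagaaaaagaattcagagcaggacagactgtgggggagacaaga
Mt2: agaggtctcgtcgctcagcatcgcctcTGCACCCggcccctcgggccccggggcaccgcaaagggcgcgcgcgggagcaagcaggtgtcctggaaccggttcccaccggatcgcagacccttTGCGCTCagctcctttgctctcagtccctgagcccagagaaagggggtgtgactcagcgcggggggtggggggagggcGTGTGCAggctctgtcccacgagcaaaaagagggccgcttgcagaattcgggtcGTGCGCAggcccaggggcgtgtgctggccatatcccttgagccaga
Mt1: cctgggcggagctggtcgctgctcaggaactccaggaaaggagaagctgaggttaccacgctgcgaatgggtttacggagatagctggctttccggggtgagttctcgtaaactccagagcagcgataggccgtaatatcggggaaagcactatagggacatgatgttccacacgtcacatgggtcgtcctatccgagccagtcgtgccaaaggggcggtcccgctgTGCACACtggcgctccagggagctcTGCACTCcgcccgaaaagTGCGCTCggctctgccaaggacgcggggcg

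The receptor genes Il1r1 and Tnfrsf1a were also called higher. Il1r1, the signaling IL-1 receptor, stood at 7.71, 6.76, 7.12, 8.31 and 8.53 TPM in cachectic and 2.48, 2.31, 2.62, 2.65 and 2.404 in control mice. The values were tight within each group and well apart (log2 fold change 1.31 ± 0.18, adjusted p = 1.82e-06). Tnfrsf1a, the main TNF receptor, rose from 29.6 ± 2.38 to 62.2 ± 9.81 TPM (log2 fold change 1.03, adjusted p = 0.0211), and Irak3, an inhibitor of IL-1 and Toll-like receptor signaling, from 3.47 ± 0.298 to 8.57 ± 2.21 (log2 fold change 1.07, adjusted p = 9.88e-04). The calls of both were lost under all 3 other scalings and without cachectic mouse 1. In all, 3 of 25 genes were called higher, with a median relative to all genes of 0.23.

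Ccl8, a chemokine that attracts monocytes, stood at 11.2, 26.6, 37.2, 10.9 and 26.5 TPM in cachectic and 4.75, 1.86, 2.06, 2.36 and 0.663 in control mice. Cachectic mouse 3 was highest, control mouse 1 was the highest control, and the groups did not overlap (log2 fold change 2.77 ± 0.64, adjusted p = 0.00354). Ccl12 rose by 1.31 (adjusted p = 0.0278) and Ccl9 by 1.29 (adjusted p = 0.0231), both also monocyte chemokines, and their calls were lost under all 3 other scalings. Ccl12 was also lost without cachectic mouse 1, 4 or 5 or control mouse 1 or 5, and Ccl9 without cachectic mouse 1, 2 or 3 or control mouse 4 and with replicate number as a block. These genes lie in a cluster of similar chemokine genes on chromosome 11, so reads may have been shared. Of the whole list, 3 of 23 chemokines were called higher, and the median relative to all genes was -0.09, and -0.11 to -0.03 when 1 mouse was left out. With no filter on low values it was 0.04, over 30 genes. Ccl21a, a lymphoid chemokine and the most abundant of them, was at 730.1 ± 331 and 373 ± 123 TPM and did not pass the test (adjusted p = 0.099).

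Among complement genes, C7, C6 and the inhibitor Serping1 were called higher. C7, a part of the membrane attack complex, stood at 70.3, 47.9, 68.4, 34.6 and 32.2 TPM in cachectic and 4.82, 13.6, 7.04, 7.398 and 6.34 in control mice. C6, its partner in the complex, stood at 2.79, 1.43, 2.68, 1.301 and 1.88 and 0.131, 0.2603, 0.0522, 0.187 and 0.0839 TPM. In both genes the groups were well apart, and C6 stayed under 3 TPM in every mouse. The log2 fold changes were 2.55 ± 0.49 for C7 (adjusted p = 5.18e-04) and 1.37 ± 0.21 for C6 (adjusted p = 1.59e-05). Serping1, the inhibitor of C1, rose from 119.96 ± 22.9 to 302 ± 46.7 TPM (log2 fold change 1.33, adjusted p = 2.88e-05). C3, the central and most abundant component, was at 529, 509.7, 462, 315 and 590.4 TPM in cachectic and 262, 224, 426, 209 and 181 in control mice. Its groups overlapped through control mouse 3 and cachectic mouse 4, and the test was not passed (adjusted p = 0.175). Of 27 complement genes tested, 5 were called higher and 0 lower, and the median relative to all genes was 0.60, or 0.34 without cachectic mouse 5.

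Among vessel genes, Ackr1 and Lrg1 were called higher and Aplnr and Apln lower. Ackr1, a chemokine-binding receptor of venules, stood at 15.1, 10.6, 10.4, 10.8 and 8.02 TPM in cachectic and 3.35, 2.71, 2.59, 2.57 and 1.34 in control mice. The groups did not overlap (log2 fold change 1.77 ± 0.18, adjusted p = 1.55e-09). Lrg1, a secreted glycoprotein of inflamed endothelium, rose by 1.59 on the log2 scale (adjusted p = 0.0117), and the call was lost without cachectic mouse 1. Aplnr, the apelin receptor, stood at 0.927, 1.12, 2.31, 3.71 and 1.398 TPM in cachectic and 6.197, 9.25, 5.79, 8.45 and 6.33 in control mice, and its ligand Apln at 0.625, 1.02, 0.867, 2.01 and 1.25 and 5.502, 3.21, 4.48, 3.88 and 4.796 TPM. For the pair every cachectic mouse was below every control mouse. Aplnr fell by 1.57 (adjusted p = 0.0109; the call was lost without cachectic mouse 1) and Apln by 1.33 (adjusted p = 6.21e-04). Cdh5, VE-cadherin, the endothelial junction protein and most abundant endothelial marker, was at 62.1 ± 10.4 and 64.7 ± 5.01 TPM (adjusted p = 0.93), and the 14 endothelial markers summed to 465 ± 86.5 TPM in cachectic and 375 ± 15.4 in control mice, with overlapping groups.

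Some targets of the glucocorticoid receptor were called higher and others were not. Fkbp5, a co-chaperone of the receptor and one of its classic targets, stood at 155, 58.6, 72.9, 71.03 and 55.3 TPM in cachectic mice 1 to 5 and 10.1, 11.6, 17.6, 16.4 and 9.64 in control mice. Cachectic mouse 1 was highest, and all cachectic mice were above all control mice. Fkbp5 rose by 2.50 ± 0.71 (adjusted p = 0.0209), and the call was lost without cachectic mouse 1 or control mouse 5. Hsd11b1, the enzyme that regenerates active glucocorticoid inside cells, stood at 21.9, 10.8, 13.8, 10.8 and 31.4 TPM in cachectic and 3.11, 4.39, 4.705, 3.71 and 2.83 in control mice. Cachectic mice 5 and 1 were highest and the groups did not overlap (log2 fold change 1.88 ± 0.44, adjusted p = 0.00453).

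Of 21 genes in the glucocorticoid list, 7 were called higher and 0 lower, with a median relative to all genes of 0.68. The list includes Mt2 and Cebpd, which are also in the lists above. Nfil3, a repressor of the circadian clock output, rose from 14.1 ± 5.603 to 57.97 ± 33.6 TPM (log2 fold change 1.87, adjusted p = 0.0159), and was 1 of 21 clock genes called, none of them lower. Its call was lost without cachectic mouse 3 or control mouse 5. Tef, a clock output factor and the most abundant of the list, was at 84.9 ± 20.6 and 85.4 ± 10.3 TPM (adjusted p = 0.97). Pdk4, which blocks pyruvate entry into mitochondria and is often raised by fasting and glucocorticoids, was at 736, 587, 436, 505 and 454 TPM in cachectic and 448, 612, 464, 285 and 615 in control mice. The groups lay over each other (adjusted p = 0.859). Glul, glutamine synthetase, rose from 229.5 ± 41.9 to 607 ± 194 TPM (log2 fold change 1.37, adjusted p = 0.0358), and leaving out any of 7 of the 10 mice or using no filter ended the call.

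Few growth factor signaling genes were called, in both directions. Igfbp3, a carrier that holds IGF1 in blood and tissue, stood at 225, 65.3, 52.3, 65.1 and 44.2 TPM in cachectic and 19.1, 21.7, 22.3, 23.3 and 17.9 in control mice. Cachectic mouse 1 was far above the rest, with no overlap of groups (log2 fold change 1.79 ± 0.39, adjusted p = 0.00227). Eif4ebp1, a brake on translation that mTORC1 releases, rose from 92.6 ± 10.1 to 242 ± 78.4 TPM (log2 fold change 1.32, adjusted p = 9.39e-04). Grb14, an adaptor that dampens the insulin receptor, stood at 5.23, 8.09, 6.93, 7.14 and 8.58 TPM in cachectic and 16.8, 19.5, 19.9, 14.9 and 21.5 in control mice. Every cachectic mouse was below every control mouse, a fall of 1.26 (adjusted p = 4.04e-05). The insulin and IGF1 list held 2 genes called higher and 1 lower of 25, with a median relative to all genes of 0.02, and -0.01 to 0.11 when 1 mouse was left out. Slc2a4, the insulin-regulated glucose transporter GLUT4, was at 349 ± 61.9 and 337 ± 19.8 TPM (adjusted p = 0.961). Nog, noggin, a secreted inhibitor of BMPs, stood at 23.5, 22.7, 25.9, 21.3 and 14.2 TPM in cachectic and 4.55, 7.53, 7.95, 7.62 and 9.59 in control mice. It was higher in every cachectic mouse (log2 fold change 1.42, adjusted p = 0.00605) and was the only gene called of 29 tested in the myostatin, activin and BMP list. Id3, a BMP target and the most abundant there, was at 31.8 ± 4.33 and 37.9 ± 9.64 TPM (adjusted p = 0.729).

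Among the other genes with the largest rise, Apod, apolipoprotein D, a lipid carrier of the lipocalin family, stood at 243, 149.6, 155, 172 and 137 TPM in cachectic and 22.5, 15.9, 17.2, 14.5 and 10.8 in control mice. The spread within each group was small beside the gap between them (log2 fold change 3.33 ± 0.31, adjusted p = 1.30e-10). Tmem252, a transmembrane protein, stood at 20.7, 8.01, 5.68, 14.7 and 5.76 TPM in cachectic mice and under 0.5 TPM in every control mouse (0.118 to 0.472). Its log2 fold change of 3.10 ± 0.37 (adjusted p = 7.99e-08) is understated on this scale because its control level is low. Syt12, a member of the synaptotagmin family, stood at 17.4, 10.2, 10.9, 10.2 and 7.61 and 0.782, 1.17, 1.29, 1.41 and 0.734 TPM (log2 fold change 2.53 ± 0.40, adjusted p = 1.65e-05). In all 3 genes every cachectic mouse was above every control mouse, which the rule that named them required.

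Fewer genes were called lower than higher, and the largest falls were smaller than the largest rises. The balance of non-overlapping genes depended on the scale, as given above. Nmrk2, nicotinamide riboside kinase 2, a muscle enzyme that makes the NAD precursor NMN, stood at 16.1, 34.5, 19.9, 17.2 and 19.98 TPM in cachectic mice 1 to 5 and 69.4, 66.7, 108, 102 and 159 in control mice 1 to 5. The highest cachectic mouse, mouse 2, was still well below the lowest control. Nmrk2 fell by 2.16 on the log2 scale (adjusted p = 0.0108), and was the only gene called of 17 in the NAD list, whose most abundant gene Nnt, a mitochondrial transhydrogenase, was at 325 ± 7.104 and 323 ± 14.9 TPM (adjusted p = 0.992). Nrep, a small intracellular protein linked to regeneration, stood at 12.1, 20.6, 26.9, 26.4 and 30.2 and 64.4, 102, 80.4, 86.8 and 84.996 TPM. It fell by 1.85 (adjusted p = 0.00104), with no overlap.

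Kera, keratocan, and Chad, chondroadherin, are leucine-rich matrix proteins of connective tissue. Kera stood at 0.288, 1.46, 1.29, 1.53 and 1.33 TPM in cachectic and 10.02, 7.08, 6.16, 13.2 and 4.22 in control mice. Chad stood at 0.435, 1.92, 1.23, 3.06 and 1.14 and 6.89, 9.74, 5.89, 15.5 and 3.601 TPM. Cachectic mouse 1 was lowest for both, and no cachectic mouse reached the lowest control. Kera fell by 2.02 (adjusted p = 0.00605) and Chad by 1.82 (adjusted p = 0.00668), and they were the 2 genes called lower of 13 in their list. Decorin (Dcn), the most abundant of that list, was higher instead, at 975 ± 157 against 595 ± 99.2 TPM (log2 fold change 0.71, adjusted p = 0.00707), below the fold threshold. Mfap4, a microfibril protein, stood at 5.47, 14.04, 10.7, 6.37 and 9.44 TPM in cachectic and 18.8, 36.3, 36.4, 38.7 and 31.9 in control mice. It fell by 1.74 (adjusted p = 0.00508), with control mouse 1 the lowest control.

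Receptors were among the remaining falls. Lgr6, a receptor for R-spondins that enhance Wnt signaling, stood at 1.38, 2.399, 1.38, 0.601 and 1.29 TPM in cachectic and 9.92, 2.92, 7.79, 6.33 and 12.01 in control mice. Control mouse 2 was close to cachectic mouse 2, without overlap, and the fall was 1.80 (adjusted p = 7.80e-04). Chrna2, a nicotinic acetylcholine receptor subunit, stood at 2.66, 2.54, 1.66, 1.42 and 2.64 and 9.55, 7.65, 8.61, 8.48 and 9.41 TPM, a fall of 1.63 (adjusted p = 6.63e-04). Sbk2, a kinase expressed in muscle, fell from 25.6 ± 6.06 to 7.59 ± 1.51 TPM (log2 fold change -1.62, adjusted p = 0.002), and BC048679, a gene without a settled role, from 33.2 ± 4.61 to 9.76 ± 6.32 (log2 fold change -1.83, adjusted p = 3.79e-04). In these 4 genes no cachectic mouse reached the control range, which the rule that named them required.

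**Figure D2:**
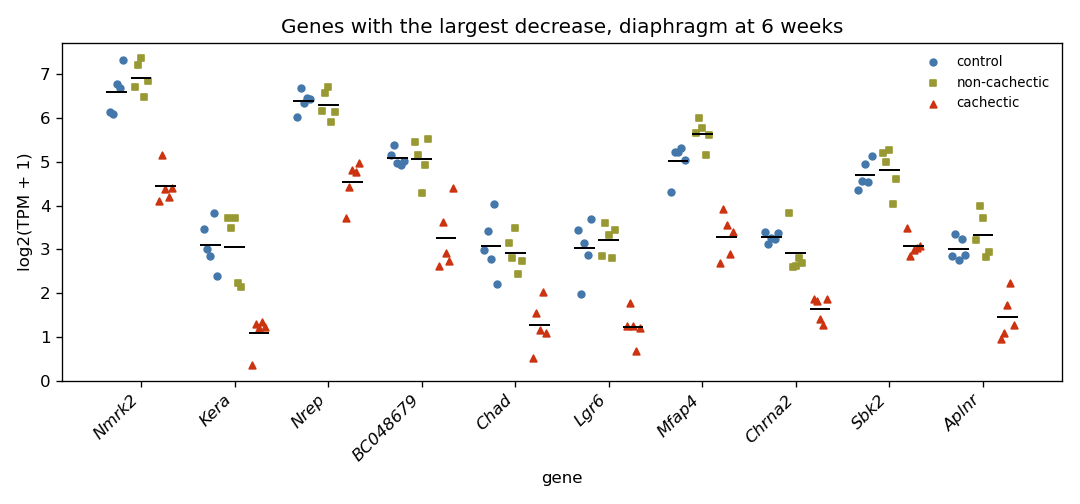
The largest falls in cachectic versus control diaphragm at 6 weeks among genes that passed the test and whose groups did not overlap, which leaves out Actc1. The vertical axis gives log2(TPM + 1), each point is 1 mouse (control circles, non-cachectic squares, cachectic triangles), horizontal bars are group means of 5 mice, and genes run from Nmrk2 at -2.16 to Aplnr at -1.57. Every cachectic mouse lies below every control mouse.

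Genes of protein breakdown held no call. Trim63 (MuRF1) stood at 477, 299.9, 152, 214 and 170.3 TPM in cachectic and 154, 92.8, 75.5, 95.1 and 84.4 in control mice. Cachectic mice 1 and 2 were highest, but control mouse 1 lay above cachectic mouse 3, so the groups overlapped. The log2 fold change was 1.29 ± 0.45 and missed the threshold (adjusted p = 0.0665). Fbxo32 (atrogin-1) stood at 279, 198, 117, 209 and 119 and 148, 119, 95.1, 107 and 113 TPM. Cachectic mice 1, 2 and 4 were above all control mice and the other 2 within their range (log2 fold change 0.59 ± 0.44, adjusted p = 0.482). Of 18 atrophy ligases tested 0 were called by limma in either direction and 0 passed at any size. Trim54, a MuRF family ligase and the most abundant of the list, was at 311 ± 30.8 and 283 ± 38.3 TPM (adjusted p = 0.803). The median relative to all genes was -0.03, and -0.03 to 0.03 when 1 mouse was left out. Summed over the list, every cachectic mouse lay above every control mouse, at 1161 to 2011 against 1055 to 1124 TPM. Such sums are not set relative to the shift of all genes.

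Proteasome subunits were 38 genes, of which 9 were higher and 0 lower at any size, with a median relative to all genes of 0.06, or 0.04 without cachectic mouse 1 and 0.03 after median-ratio scaling. Psmb1, the most abundant subunit, was above the control range in every cachectic mouse, at 257 ± 33.3 against 192 ± 7.86 TPM, but did not pass (adjusted p = 0.0644). Autophagy and lysosome genes had 5 of 30 higher at any size and 0 lower, with a median relative to all genes of 0.19. Pink1, a kinase that marks damaged mitochondria and the most abundant gene of the list, was at 663 ± 37.6 and 706 ± 50.8 TPM (adjusted p = 0.874). Ctsl, the lysosomal protease cathepsin L, named after its value was seen, had a mean of 330.1 against 159.9 TPM (log2 fold change 0.98, adjusted p = 0.00172). Proteasome subunits summed to 3042 to 4106 TPM in cachectic and 2764 to 3017 in control mice. Autophagy and lysosome genes summed to 3860 to 5718 and 3313 to 3664 TPM. In neither sum did the groups overlap.

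Contractile genes held few calls. Myh1 (type IIx) stood at 11887, 9068, 6012, 10627 and 6484 TPM in cachectic and 5037, 5934, 4703, 2385 and 5113 in control mice. Every cachectic mouse was above every control mouse, yet the spread over the series was large and the test was not passed (log2 fold change 0.94 ± 0.44, adjusted p = 0.21). Myh4 (type IIb) stood at 608, 551, 825, 258 and 32.03 and 86.3, 98.5, 183, 83.5 and 174 TPM. Cachectic mice 1 to 4 were above all control mice and cachectic mouse 5 below them (adjusted p = 0.408). Myh2 (type IIa) was at 3457 ± 223 and 3468 ± 665 TPM and Myh7 (type I) at 492 ± 95.99 and 466 ± 201 (adjusted p = 0.986 and 0.872).

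Among sarcomere genes, 2 of 42 were called higher and 1 lower. Ankrd2, a stretch-responsive protein of the I-band, stood at 719.5, 581, 507, 439 and 572 TPM in cachectic and 136, 221, 95.7, 361 and 116 in control mice. Control mouse 4 came closest to the cachectic range without entering it (log2 fold change 1.75 ± 0.47, adjusted p = 0.0126), and the call was lost without cachectic mouse 1. Des, desmin, the muscle intermediate filament, stood at 3656, 2500.03, 3007, 2917 and 2412 and 1255, 1199.8, 1158, 1413 and 1277 TPM. It was higher in every cachectic mouse (log2 fold change 1.19, adjusted p = 0.0385), but leaving out any mouse except cachectic mouse 5, median-ratio scaling, no filter or the replicate block ended the call. Actc1, cardiac alpha-actin, stood at 0.834, 0.652, 0.827, 1.50001 and 1.76 TPM in cachectic and 1.404, 14.5, 11.7, 6.02 and 14.5 in control mice. Control mouse 1 lay within the cachectic range and the other 4 far above it, and the fall was 2.08 (adjusted p = 0.00405). Cacng1, a subunit of the muscle calcium channel, rose from 26.9 ± 3.89 to 65.5 ± 17.7 TPM (log2 fold change 1.22, adjusted p = 0.00517), the only call of 26 calcium handling genes. Atp2a1, the calcium pump of fast fibers and the most abundant of these, was above the control range in every cachectic mouse, at 9369.9 ± 1678 against 5882 ± 404 TPM, without passing (adjusted p = 0.359).

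Among energy metabolism genes only small changes passed. None of 32 fatty acid oxidation genes passed the fold threshold, but 5 were lower and 0 higher at any size, and the median relative to all genes was -0.28, between -0.29 and -0.31 under the 3 other scalings. With no filter on low values this median was -0.14. Fabp3, the fatty acid binding protein of heart and red muscle, stood at 3129, 3194, 3867, 2851 and 3934 TPM in cachectic and 6416, 5534, 5590.02, 6475 and 6008 in control mice. The groups were well apart, and the log2 fold change was -0.83 (adjusted p = 3.54e-05). The other 4, named after their values were seen, were Hadhb (relative log2 fold change -0.95), Hadh (-0.72), Acaa2 (-0.65) and Acadm (-0.55), enzymes of mitochondrial beta-oxidation.

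Nuclear genes of oxidative phosphorylation had a median relative to all genes of -0.26, with 1 of 47 lower at any size. The 13 mitochondrially encoded genes had -0.39, with 5 lower at any size. After quantile normalization, which caps the most abundant genes, the latter median was -0.06. With no filter on low values the nuclear and mitochondrially encoded medians were -0.12 and -0.25. Of these 13 genes mt-Co1, a catalytic subunit of cytochrome oxidase, was most abundant and below the control range in every cachectic mouse, at 85293 ± 6768 against 98551 ± 2579 TPM, without passing (adjusted p = 0.228). Cox6a2, a muscle subunit of cytochrome oxidase, was at 2922 ± 541 and 2542 ± 286 TPM (adjusted p = 0.356). Glycolysis held no calls among 28 genes. Its most abundant member Aldoa, aldolase A, was at 2187 ± 286 and 1832 ± 219 TPM (adjusted p = 0.387).

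Many cytosolic ribosomal protein genes were higher by a small amount. Of 76 genes, 50 were higher and 0 lower at any size, and none passed the fold threshold. Their summed level was 35359, 27394, 29012, 31659 and 24840.2 TPM in cachectic mice and 20796, 20777, 21742, 21821 and 20658 in control mice. Every cachectic mouse was above every control mouse. The median relative to all genes was 0.31, and 0.27 to 0.31 under the 3 other scalings. Rplp1, a protein of the ribosomal stalk and the most abundant of them, was at 1302 ± 110.3 and 1115 ± 143 TPM (adjusted p = 0.516). Amino acid handling had 2 of 27 genes called higher: Glul, given above, and Slc3a2, the heavy chain of amino acid exchangers, from 16.7 ± 1.46 to 43.2 ± 11.6 TPM (log2 fold change 1.28, adjusted p = 3.94e-04). Got1, an aspartate aminotransferase and the most abundant of that list, was at 627 ± 58.1 and 604 ± 62.3 TPM (adjusted p = 0.897).

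Among matrix genes, 3 of 26 metalloproteases and inhibitors were called higher and 0 lower, and 2 of 22 elastic fiber and microfibril genes higher and 1 lower. Lox, lysyl oxidase, which cross-links collagen and elastin, stood at 17.6, 14.6, 12.1, 14.6 and 7.83 TPM in cachectic and 3.39, 1.903, 2.96, 2.41 and 1.82 in control mice. Mmp3, stromelysin, a matrix protease, stood at 1.84, 8.63, 4.25, 5.399 and 3.02 and 0.264, 0.195, 0.322, 0.223 and 0.162 TPM. No cachectic mouse fell into the control range for either gene. The log2 fold changes were 2.01 ± 0.31 for Lox (adjusted p = 1.53e-05) and 2.07 ± 0.31 for Mmp3 (adjusted p = 5.33e-06). Adamts15, a proteoglycan-cleaving protease, rose by 1.41 (adjusted p = 1.08e-04), Timp1, a metalloprotease inhibitor, by 1.12 (adjusted p = 0.00652) and Mgp, matrix Gla protein, an inhibitor of calcification, by 1.03 (adjusted p = 0.00909). The calls of Timp1 and Mgp were lost without cachectic mouse 1 or 3 and after median-ratio scaling or quantile normalization, and that of Mgp also without cachectic mouse 2, without control mouse 1 or 5 and without the mitochondrially encoded genes. The most abundant metalloprotease inhibitor, Timp3, was at 119 ± 35.3 and 77.6 ± 14.8 TPM (adjusted p = 0.409), and Sparcl1, a matricellular protein, at 241 ± 26.98 and 221 ± 22.9 (adjusted p = 0.738).

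Of 25 collagen genes, 0 were called by limma and 0 passed at any size, and the median relative to all genes was -0.38. Col3a1, the most abundant, stood at 32.5, 62.1, 77.6, 43.04 and 40.96 TPM in cachectic and 53.9, 81.6, 89.3, 73.6 and 66.6 in control mice. The ranges overlapped (adjusted p = 0.504). Gpx3, a secreted glutathione peroxidase and the only antioxidant gene called of 28, rose from 352 ± 50.8 to 973 ± 366 TPM (log2 fold change 1.39, adjusted p = 0.0409), a call that ended when any mouse except cachectic mouse 5 was left out, with no filter and with the replicate block.

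Several lists held no calls and medians below that of all genes: heat shock proteins (-0.29 relative to all genes, 30 genes), neuromuscular junction genes (-0.19, 22 genes) and interferon and antigen presentation genes (-0.16, or -0.03 without control mouse 1, 37 genes). Cryab, a small heat shock protein of the Z-disc, was at 1230.1 ± 125 and 1631 ± 289 TPM (adjusted p = 0.18), and B2m, the light chain of MHC class I, at 343 ± 69.4 and 319 ± 58.8 (adjusted p = 0.908). Integrated stress genes (30), polyamine genes (16) and cell cycle genes (15) also held no calls, with medians relative to all genes of 0.17, 0.03 and 0.13. Leaving out 1 mouse gave 0.08 to 0.18, -0.08 to 0.07 and 0.06 to 0.17. With no filter on low values they were 0.27, 0.16 and -0.10, over 32, 18 and 27 genes. Atf4, the transcription factor of the integrated stress response, was above the control range in every cachectic mouse, at 231 ± 27.998 against 171 ± 13.3 TPM, without passing (adjusted p = 0.259). Oaz1, which inhibits polyamine synthesis, was at 187 ± 14.9 and 193 ± 11.2 TPM (adjusted p = 0.826) and Gadd45g, a growth arrest gene, at 47.5 ± 18.6 and 32.6 ± 7.94 (adjusted p = 0.684). Of 19 myogenic genes 1 was called higher, Des, given above.

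**Figure D3:**
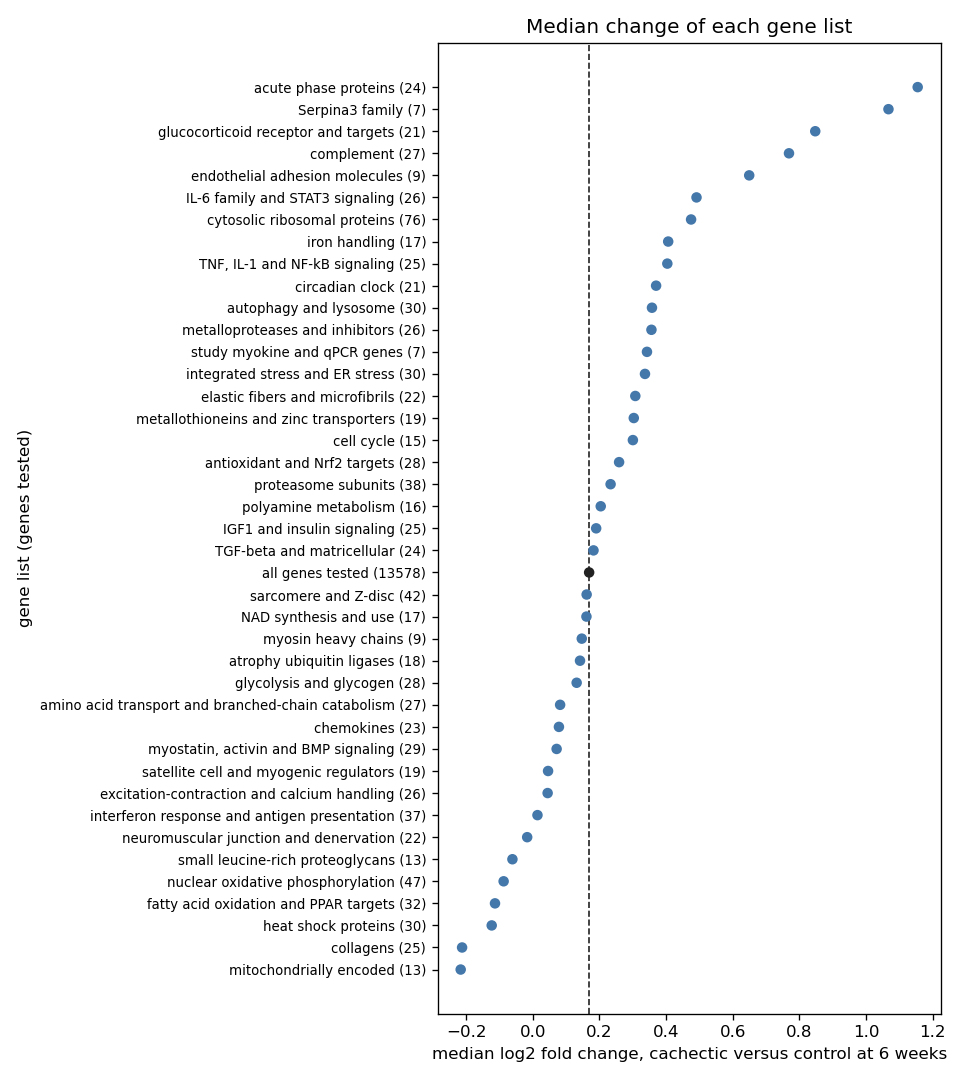
Median log2 fold change of each gene list other than the cell type marker lists in cachectic versus control diaphragm at 6 weeks (horizontal axis), with 1 point per list and the number of genes tested in brackets. The dashed line is the median of all genes tested, 0.17; among the lists shown, acute phase genes lie farthest to the right and the mitochondrially encoded genes farthest to the left, and the acute phase median rests on cachectic mouse 5.

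Fibcd1, the secreted muscle protein that the study is about, was below the expression filter, at no more than 0.0211 TPM in any of the 10 mice, so it was not tested. Of other genes taken from the study, Wnt9a was at 8.898 ± 2.12 and 9.198 ± 1.26 TPM (adjusted p = 0.923), Tgfbi at 34.7 ± 7.22 and 26.7 ± 9.32 (adjusted p = 0.458), Bmp1 at 23.4 ± 3.39 and 18.2 ± 2.703 (adjusted p = 0.623) and Sparc at 172 ± 25.95 and 182 ± 20.3 (adjusted p = 0.9). The integrin genes Itga2b, Itgb3 and Itgav, receptors of matrix and fibrinogen, had log2 fold changes of 0.48, 0.58 and 0.15 (adjusted p = 0.341, 0.209 and 0.572).

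Markers of other cell types were summed in each mouse. The 17 macrophage markers in the table summed to 664, 827, 683, 587 and 410.03 TPM in cachectic mice 1 to 5 and 469, 579.5, 436, 364 and 902 in control mice, with overlapping groups and control mouse 5 highest. Lyz2, lysozyme, the most abundant, was at 278 ± 103 and 362 ± 185 TPM (adjusted p = 0.752). The median of the list was 0.42 relative to all genes, and 0.36 to 0.50 when 1 mouse was left out. Of the 17 markers, 6 were above every control mouse and 4 higher at any size, beside 15.9% and 5.62% of all genes tested. Of these, 2 of 17 markers were called higher, the scavenger receptors Cd163, from 4.31 ± 0.851 to 16.4 ± 4.85 TPM (log2 fold change 1.68, adjusted p = 1.14e-04), and Mrc1, from 6.16 ± 1.03 to 15.99 ± 3.84 (log2 fold change 1.23, adjusted p = 8.75e-05). Both mark resident tissue macrophages. The part of macrophage number in the chemokine and complement results was not tested.

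Neutrophil markers were low, at 34.04, 25.5, 18.3, 20.8 and 20.7 TPM summed over 14 genes in cachectic mice and 15.1, 13.6, 10.6, 5.43 and 12.8 in control mice. Every cachectic mouse was above every control mouse. Of 6 markers tested 0 passed at any size, and their median was 0.40 relative to all genes. With no filter on low values this median was 0.12 over 14 genes. S100a9, a calcium-binding protein of neutrophils and the most abundant of these, was at 11.1 ± 1.78 against 5.53 ± 2.36 TPM (adjusted p = 0.368), and 8 of the 14, Ly6g, Mpo and Elane among them, were under 1 TPM in all 10 mice. T and NK cell markers summed to no more than 6.11 TPM in any of the 10 mice, led by Trbc1, the T cell receptor constant gene. Erythroid markers, led by the beta-globin gene Hbb-bs, summed to 1176, 14419.6, 2756, 1326 and 2539 TPM in cachectic and 10742, 3888, 7954, 8512 and 8337 in control mice. Cachectic mouse 2 was highest of all and the other 4 were below every control mouse, and no erythroid gene passed the test.

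Fibro-adipogenic progenitor markers summed to 2466, 2494, 2579, 2197 and 1739 TPM in cachectic and 1428, 1725, 1993, 1729.7 and 1609 in control mice, led by Dcn. The groups overlapped through cachectic mouse 5. Ly6a (Sca-1), a surface marker of these cells and of endothelium, rose from 65.8 ± 9.405 to 142 ± 25.9 TPM (log2 fold change 1.09, adjusted p = 0.0025), a call lost under the 3 other scalings and without cachectic mouse 3. Tenocyte markers, led by Thbs4, summed to 141 ± 35.9 and 127 ± 28.3 TPM and overlapped. The median of the 7 tenocyte markers tested was -0.53 relative to all genes, and -0.67 to -0.39 when 1 mouse was left out. With no filter on low values it was -0.29 over 8 genes. Of the 7 markers, 2 were below every control mouse and 1 above, beside 2.95% and 15.9% of all genes tested. Of these markers 1 was called lower, Kera itself. Tnmd, tenomodulin, named after its value was seen, had a log2 fold change of -0.68 (adjusted p = 0.263). The part of tendon left on the muscle in the fall of Kera and Chad was not tested. Adipocyte markers (1352 ± 552 and 1099.9 ± 178 TPM), mesothelial markers (191 ± 73.3 and 144 ± 68.7) and Schwann cell markers (134 ± 24.7 and 128 ± 23.05) overlapped between the groups. Their most abundant genes were Fabp4, a fat cell lipid carrier, at 784 ± 192 and 663 ± 65.4 TPM (adjusted p = 0.698), Msln, mesothelin, at 58.5 ± 28.6 and 40.2 ± 21.2 (adjusted p = 0.501), and Pmp22, a myelin protein, at 66.3 ± 6.17 and 55.6 ± 8.09 (adjusted p = 0.443). For adipocyte markers cachectic mouse 5 was highest, at 2305 TPM, and the other cachectic mice were at 958 to 1311. The adipocyte median was 0.09 relative to all genes, and -0.22 without this mouse. Smooth muscle markers were higher in every cachectic mouse, at 3367 ± 504 against 1636 ± 97.1 TPM. The median of the 10 markers was 0.33 relative to all genes, or 0.16 without cachectic mouse 5. Of the 10 markers, 4 were above every control mouse, beside 15.9% of all genes tested. Their most abundant gene was Des, which muscle fibers also express, and the part of fibers in this sum was not tested. Immediate early genes, which dissection can raise, summed to 377, 487, 283, 327 and 253 TPM in cachectic and 223, 235, 212, 211 and 259 in control mice. Cachectic mouse 5 lay within the control range and the other 4 above it. Dusp1, a phosphatase of MAP kinases and the most abundant of them, was at 46.3 ± 12.7 and 53.4 ± 9.902 TPM (adjusted p = 0.754). Junb belongs to both this list and the cytokine list, and the part of dissection in the rise of Junb and Socs3 was not tested.

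The non-cachectic melanoma gives a tumor-bearing group labelled as free of wasting. Cachectic mice were compared with the 5 non-cachectic mice at 6 weeks, and this comparison shares the cachectic mice with that against control mice. Serpina3n was at 10.1, 6.09, 6.75, 11.5 and 6.88 TPM in non-cachectic mice 1 to 5, Mt2 at 17.9, 16.3, 18.9, 24.7 and 13.95 and Socs3 at 7.21, 8.68, 8.52, 5.57 and 3.61. All 3 genes lay far below every cachectic mouse. For Mt2 every non-cachectic mouse lay above every control mouse, but the lowest only just, with the highest control mouse at 13.8 TPM. The log2 fold change of cachectic versus non-cachectic mice was 4.93 for Serpina3n (adjusted p = 5.10e-06), 4.53 for Mt2 (adjusted p = 1.80e-05), 2.43 for Socs3 (adjusted p = 1.80e-05) and -2.48 for Nmrk2 (adjusted p = 0.00359). The test called 155 genes higher (1.14%) and 53 lower (0.39%). The split moved to 124 and 80 after median-ratio scaling, 120 and 87 after quantile normalization, 141 and 113 without the mitochondrially encoded genes and 192 and 84 with a pseudocount of 0.1, and leaving out cachectic mouse 1 gave 95 and 36.

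Some collagens were called against the non-cachectic group. Col3a1 was at 147, 163, 185, 104 and 84.97 TPM in non-cachectic mice, mostly above both other groups, and it was lower in cachectic than in non-cachectic mice (log2 fold change -1.41, adjusted p = 0.0342). In all, 5 of 25 collagens were called lower against the non-cachectic group. Sln, sarcolipin, an inhibitor of the calcium pump, had log2 fold changes of 0.65 against non-cachectic (adjusted p = 0.0342) and 0.34 against control mice (adjusted p = 0.343). Some genes were called against control but not against non-cachectic mice: Tnfrsf1a (0.83, adjusted p = 0.0809), Timp1 (0.66, adjusted p = 0.16) and Gpx3 (1.08, adjusted p = 0.151).

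Non-cachectic and control mice were compared directly, with the control mice shared. limma called 0 genes in either direction; with the same fold threshold at an unadjusted p under 0.05 there were 2 higher and 5 lower, and Dunn's test at an unadjusted p gave 4. The log2 fold change of non-cachectic versus control mice was 0.58 for Mt2 (adjusted p = 1), 0.12 for Serpina3n, -0.26 for Apod and 0.42 for Socs3, and 0.86 for Col3a1 (adjusted p = 1). Not set relative to all genes, the medians of the collagen list were 0.45 here, -0.44 for cachectic versus non-cachectic and -0.21 for cachectic versus control mice. The medians of all genes tested were 0.03, 0.14 and 0.17 in these comparisons.

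The 6-week result was set beside the weeks before and after, measured in other mice. At 4 weeks, with 5 mice in each group, 2 genes were called higher (0.0147%) and 0 lower by limma. The 2 called genes were Apod (log2 fold change 1.69, adjusted p = 0.0118) and Socs3 (2.16, adjusted p = 0.00646). With the same fold threshold at an unadjusted p under 0.05 there were 36 higher and 34 lower. Serpina3n and Mt2 had log2 fold changes of 2.30 and 1.86 at 4 weeks (adjusted p = 0.338 and 0.627). At 8 weeks, with 7 cachectic and 5 control mice, 181 genes were called higher (1.33%) and 225 lower (1.66%). Cachectic mouse 3 of week 8 stood apart, with 15263 genes above 0 and 57.1% of its TPM in genes of mitochondrial DNA, against 18066 to 18634 genes and 32.5 to 41.6% in the other 6. Without it 309 genes were higher and 158 lower at 8 weeks, an alternative chosen after the data were seen.

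The genes that led at 6 weeks were followed to 8 weeks. Their log2 fold changes at 8 weeks were 5.21 for Mt2, 5.42 for Serpina3n, 3.39 for Apod, 3.52 for Lcn2 and -1.99 for Kera, beside 5.11, 5.05, 3.33, 3.20 and -2.02 at 6 weeks. Nmrk2 was at -2.16 and -3.68, Apln at -1.33 and -2.29, and Col3a1, not called at 6 weeks, at -0.55 and -1.89 at 6 and 8 weeks. Other leading genes had smaller changes at 8 weeks. Socs3 was at 2.85 and 2.17, C7 at 2.55 and 1.56 and Fetub at 2.54 and 1.79. The 6-week change of Fetub was smaller without cachectic mouse 5 of week 6 and was then not called, as given above. Among the falls BC048679 was at -1.83 and -1.53 and Chrna2 at -1.63 and -1.13. Without cachectic mouse 3 of week 8 the 8-week values were 5.97 for Mt2, 6.11 for Serpina3n, -4.14 for Nmrk2, -2.27 for Apln and -1.86 for Col3a1. Socs3, C7, Fetub, BC048679 and Chrna2 were then at 2.68, 2.15, 2.07, -1.61 and -0.97. The collagen list had 11 genes called lower at 8 weeks, or 8 without that mouse.

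The difference between weeks was tested itself. For 6 minus 4 weeks limma called 0 genes. With the same fold threshold at an unadjusted p under 0.05 there were 110 higher and 16 lower. At the adjusted p, array quality weights gave 156, 139 of them higher. Fitting only the groups compared gave 5, as did leaving out cachectic mouse 2 of week 4, and quantile normalization gave 1. Chrna2 had the smallest unadjusted p of the genes named here at 5.16e-05 (adjusted p = 0.319), with log2 fold changes of 0.38 at 4 and -1.63 at 6 weeks, and Ackr1 had 1.18e-04 (adjusted p = 0.319), with 0.70 and 1.77. For 6 minus 8 weeks limma called 0 genes, and 7 with array quality weights. At an unadjusted p under 0.05 with the same fold threshold there were 37 higher and 4 lower. Dunn's test was not run on these differences.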

How the data were processed

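The deposited table gave TPM values made by the authors for 47643 genes on mm10 in 62 libraries. TPM was analysed as log2(TPM + 1) for the 13578 genes with at least 1 TPM in 5 or more libraries. limma 3.58.1 in R 4.3.3 fitted 12 means of treatment and week over all 62 libraries, with no pairing, empirical Bayes with a trend of spread on the mean, and Benjamini-Hochberg adjustment over all 13578 genes. A gene was called at an adjusted p under 0.05 and an absolute log2 fold change above 1. Non-overlap means that each cachectic value lay outside the control range. The share of mitochondrially encoded genes was tested by an exact two-sided permutation over the 10 mice. Figures and list values used Python 3.11.15, pandas 2.3.3 and matplotlib 3.10.9. Gene positions came from GENCODE vM21 (GRCm38) and promoters from RefSeq (GRCm38.p6).

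Genes were named by rule: the 15 largest rises and 10 largest falls among genes that passed and did not overlap, up to 4 called members and the most abundant member by mean of the 10 mice of each of 55 lists, and genes the study or the atrophy field names. Of the genes this rule took, 1 is left out. The groups compared and the lists were chosen with earlier results of these data known. Alternatives were other pseudocounts, filters, scalings, weights, a replicate block, a covariate, Dunn's test, smaller fits and leaving out each mouse. The fits without the 4 libraries that list the fewest genes and, at 8 weeks, without cachectic mouse 3 were added after the data were seen. Read mapping of paralogs and multi-mapped reads was not stated.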

Additional observations from a re-analysis of the deposited data

Results flagged for a closer look

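In some groups of 5 mice, 1 mouse lay apart: the gap to its neighbor took more than 0.71 of the group's range on the log2(TPM + 1) scale. Chance flags about 1 in 20 groups, and 20 of 274 groups were found. The share of the range was 0.761 for Mt2 in control mice (lowest mouse apart), 0.793 for Serpina3n, 0.723 for Lcn2, 0.862 for Mt1, 0.832 for Fetub, 0.721 for Nmrk2, 0.846 for Slc39a14, 0.732 for Fkbp5 and 0.762 for Igfbp3 in cachectic mice (highest apart), and 0.848 for Kera and 0.756 for Mgp in cachectic mice (lowest apart). In control mice it was 0.733 for Lcn2, 0.724 for Itih4, 0.807 for Cebpd and 0.85 for Cdh5 (highest apart), and 0.73 for Mfap4 and 0.745 for Myh1 (lowest apart). Summed markers gave 0.771 for muscle fibers in control mice, 0.713 for hepatocytes in cachectic mice and 0.768 for Schwann cells and nerve in cachectic mice (highest apart). All mice were kept, and the cause was not tested.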

How the results depend on the processing

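Alternatives moved the counts as follows, and the cause was not tested. For cachectic versus control mice at 6 weeks, Dunn's test with adjusted p called 0 higher and 0 lower and at an unadjusted p 213 and 33, against 175 and 31 by limma. Leaving out each mouse gave 114 to 205 higher. Array quality weights gave 245 and 41, only the groups compared 216 and 38, leaving out the 4 libraries with the fewest genes 212 and 38, hepatocyte markers as a covariate 182 and 32, and no filter 162 and 28. Lower genes were 61 with a pseudocount of 0.1, 67 after median-ratio scaling, 69 after quantile normalization and 82 without mitochondrially encoded genes. Non-overlapping genes ranged from 2651 to 4297 when a mouse was left out.

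For cachectic versus non-cachectic mice Dunn's test with adjusted p called 0, and leaving out each mouse gave 131 to 217. For non-cachectic versus control mice Dunn's test at an unadjusted p called 4. The difference of 6 and 4 weeks gave 1 after quantile normalization, 156 with array quality weights, 5 with only the groups compared and 5 without cachectic mouse 2 at 4 weeks. The difference of 6 and 8 weeks gave 7 with array quality weights.

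Replicate numbers did not pair mice: correlations of mice with the same number ran from -0.064 to 0.203, and 2 of 5 cachectic mice correlated best with the control mouse of their own number. With replicate number as a block 165 genes were higher and 27 lower.

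Log2 fold changes of genes that were not called turned sign as follows. After median-ratio scaling, quantile normalization and leaving out mitochondrially encoded genes, in this order, they were -0.0481, -0.0133, -0.0244 for Trim54, -0.0962, -0.0766, -0.0727 for B2m, -0.1565, -0.1486, -0.133 for Slc2a4, -0.1387, -0.1261, -0.1151 for Got1, -0.0675, -0.0946, -0.0439 for Sparcl1 and -0.0451, -0.0437, -0.0213 for Myh7, and the log2 fold change of Nnt was -0.1861, -0.1649, -0.1627. After the first 2 they were -0.0016, -0.0063 for Pdk4 and -0.0116, -0.0513 for Itgav. mt-Co1 was left without a sign at 0 after quantile normalization. Cox6a2 had -0.0047 after median-ratio scaling, and Myh2 -0.1786 after median-ratio scaling and -0.1549 without mitochondrially encoded genes. With array quality weights Alb had -0.4652, Igkc -0.2396, Cdh5 0.0036, Wnt9a 0.046 and Myh2 -0.0321, and with hepatocyte markers as a covariate Alb had -0.5168 and Igkc -0.0122. Leaving out each mouse gave -1.4811 to 1.5981 for Alb, -0.9058 to 1.0784 for Igkc, -0.1321 to 0.1152 for Tef, -0.0579 to 0.0894 for Slc2a4, -0.0207 to 0.0215 for Nnt, -0.1259 to 0.0345 for Cdh5, -0.1507 to 0.0568 for Wnt9a and -0.0541 to 0.0926 for Myh2. Alb and Igkc were lowest without cachectic mouse 5.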
